A study of Homo sapiens with 4 samples.

Results

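The genes examined here are the nuclear-encoded subunits of the mitochondrial respiratory chain and of ATP synthase, together with the complex I assembly factors whose symbols share their prefix. A gene was included when it was listed as protein-coding and its symbol began with NDUFA, NDUFB, NDUFC, NDUFS, NDUFV, UQCR, COX4, COX5, COX6, COX7, COX8 or ATP5, or was SDHA, SDHB, SDHC, SDHD, CYC1 or CYCS. This gave 99 of the 58243 genes listed, and 19818 of all listed genes were protein-coding. They comprised 38 complex I subunits, 8 complex I assembly factors, 4 subunits of complex II, 10 of complex III, cytochrome c, 19 of complex IV and 19 genes named for ATP synthase. The symbols are the older ones in the deposited tables, so that ATP5D is the delta subunit, ATP5F1 the b subunit, and ATP5G1, ATP5G2 and ATP5G3 the subunit c genes. ATP5S carries the prefix without being a structural subunit, UQCRHL is a near copy of UQCRH, and ATP5J2-PTCD1 and NDUFC2-KCTD14 are readthrough rows that join a member to its neighbour.

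RNA sequencing was done on SH-SY5Y, an established human neuroblastoma line of sympathetic origin that is used as a model of neurons. The control group was 2 libraries (a and b) of cells given no agent, and the other group was 2 libraries (a and b) of cells exposed for 8 h to sodium nitroprusside (SNP), which is a nitric oxide donor and which the labels tie to an oxidized state. All cells came from the same line in serum-containing medium. The protocol speaks of cells differentiated with retinoic acid and of several SNP doses, without saying which dose was sequenced or whether the sequenced cells were differentiated. It also describes repeats within a single experiment, so the p-values measure only the spread between these libraries, which may be technical.

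The respiratory chain moves electrons from NADH (at complex I) and succinate (at complex II) through ubiquinone to complex III, then by cytochrome c to complex IV, which reduces oxygen. Complexes I, III and IV pump protons, and ATP synthase uses the resulting gradient to make ATP. Most subunits are encoded in the nucleus and imported, while a small set of core subunits is encoded in mitochondrial DNA, so each complex except complex II is built from the products of both genomes. Neurons depend on this machinery for most of their ATP, and nitric oxide is known to bind the oxygen site of complex IV.

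The summed gene counts of the libraries lay between 5613144 and 8056550. The members took 0.271% and 0.292% of the counts in control a and b, and 0.287% and 0.271% in SNP a and b. Cell identity was checked with marker lists. Of 18 sympathetic neuroblast and neuron markers 17 were detectable, with summed levels of 4727 and 4763 CPM (counts per 1000000 counts, scaled by TMM) in the control libraries and 3962 and 4000 CPM in the SNP libraries. TH, the tyrosine hydroxylase of catecholamine synthesis, was at 0 in every library. Among these markers 4 were called higher and 7 lower in SNP (64.7% of the 17 called, against 26.2% of all genes). The lower ones included DBH (log2 fold change -1.38) and PHOX2A (-0.94). The higher ones included CHGB (0.97) and CHGA (0.91), named after their values were seen. Schwann cell or glia markers summed to 1.64 to 3.37 CPM over all libraries, with SOX10, AQP4 and MBP among those at 0. Blood and immune markers summed to 1.60 to 3.11 CPM, with PTPRC, CD3E, HBA1 and HBB among those at 0. Epithelial markers summed to 3.50 to 5.50 CPM, with KRT5 at 0. Mesenchymal or fibroblast markers summed to 218 and 210 CPM in control and 259 and 240 CPM in SNP, and of the 7 tested COL3A1 was called higher and COL1A2 lower. The part of these markers in the member results was not tested. In bulk libraries such as these, fewer cells of a type and less RNA per cell cannot be told apart.

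Of the 99 members 90 had enough counts to be tested, and 22 (24.4%) differed between SNP and control at an adjusted p-value under 0.05. Each adjusted p-value comes from the quasi-likelihood test of edgeR, corrected by the Benjamini-Hochberg method across the 14759 tested genes, and a member past 0.05 is said here to be called. Over all genes tested 26.2% were called, so the share of members called was near the background. The split by direction was uneven. There were 17 members called lower in SNP (18.9%, against 12.6% of all genes) and 5 called higher (5.56%, against 13.6% of all genes). The median log2 fold change (SNP over control) was -0.16 over the 90 members and -0.0042 over all genes tested. Both SNP libraries lay on one side of both control libraries for 53 of the 90 tested members (58.9%, against 64% of all genes), 34 below and 19 above. All 22 called members were among them. A change of at least 2-fold was found for 4 of the called members, UQCR10, COX8A, ATP5D and SDHB, each of which fell. The plot of fold changes by complex shows that the lower calls were spread over complexes I to IV and ATP synthase.

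The summed level of all members did not differ beyond the spread between libraries, at 2819 ± 123 CPM in control and 2801 ± 154 CPM in SNP (SD, n = 2 each). Leaving out 1 library moved the number of calls, among the members and over all genes. Each such fit had 1 library left in a group, so its counts of calls are not given. The median over the members was -0.17 without control a, -0.073 without control b, -0.27 without SNP a and -0.012 without SNP b. Of the 22 called members 3 (ATP5D, SDHB and NDUFS8) were called in each of the alternative fits that tested them (other filters, scalings and tests, offsets on length and base composition, and each library left out).

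**Figure D1:**
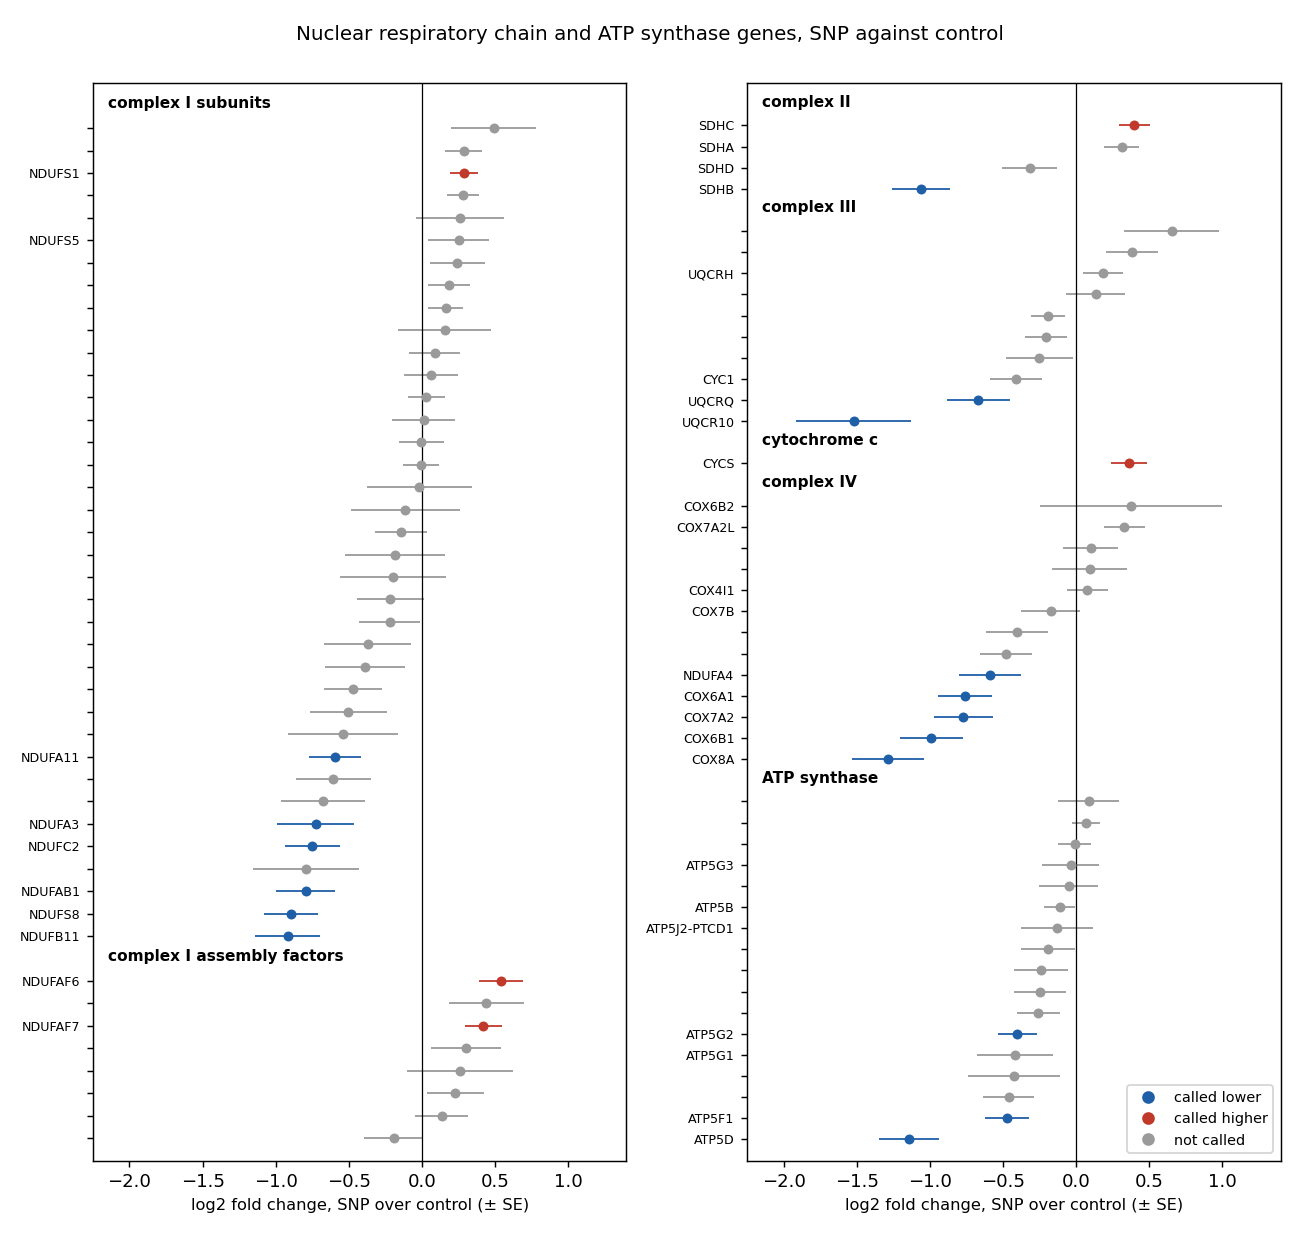
Log2 fold change of each of the 90 tested members, SNP over control, with its standard error (horizontal bars), grouped by complex; blue points are called lower, red points higher and grey points not called, and labels are given for the called members and the others the text describes by rule. Of the 22 called members 17 lie left of 0 and 5 right of 0, and the lowest is UQCR10 at -1.52.

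Complex II showed opposite changes among the subunits of a single enzyme. It joins the citric acid cycle to the respiratory chain and has only nuclear-encoded subunits. SDHB, its iron-sulfur subunit (ENSG00000117118; chromosome 1, 17018722 to 17054170, minus strand; all positions here are GRCh38 from GENCODE 29), stood at 27.8 and 24.5 CPM in control a and b and at 14.7 and 10.4 CPM in SNP a and b. Both SNP libraries were below both control libraries, and SNP b was the lowest. SDHB fell by 1.06 on the log2 scale (SE 0.198, edgeR adjusted p = 4.9e-04), or 2.08-fold. SDHC, a membrane anchor subunit that helps bind haem and ubiquinone (ENSG00000143252; chromosome 1, 161314257 to 161375340, plus strand), stood at 145 and 136 CPM in control and 197 and 174 CPM in SNP. It rose by a log2 fold change of 0.40 (SE 0.104, edgeR adjusted p = 0.0069), with both SNP libraries above both controls; without control b the call was lost.

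The other subunits of complex II did not pass the test. SDHA, the flavoprotein that oxidizes succinate, was at 49.8 and 52.9 CPM in control and 64.2 and 63.3 CPM in SNP, with a log2 fold change of 0.31 (SE 0.123, edgeR adjusted p = 0.064). Its groups did not overlap. SDHD, the other membrane anchor, was at 19.4 and 19.5 CPM in control and 16.7 and 14.5 CPM in SNP (log2 fold change -0.32, SE 0.188). Levels of different genes were compared as TPM, the deposited transcript measure that divides by exon length. In control libraries SDHB had the highest mean of the complex at 49.9 ± 3.73 TPM (SD, n = 2), beside 46.7 ± 1.63 TPM for SDHC, and these did not differ beyond their spread. In SNP libraries SDHC stood at 66.9 ± 3.47 TPM and SDHB at 25.95 ± 5.55 TPM (SD, n = 2 each), and SDHB lay within its spread of SDHD at 28.1 ± 1.91 TPM. On the TPM scale the median gene was 0.11 higher in SNP on the log2 scale, against -0.0039 for CPM, and changes in TPM are to be read against that shift.

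Promoters are shown for SDHB, which fell 2.08-fold, for COX8A, which fell 2.44-fold, and for CYCS, which rose, because they moved in both directions. The regulators NRF1, the ETS-family factor GABP and YY1 are known activators of many respiratory chain genes. Sequences are those of RefSeq on GRCh38.p14, read 5′ to 3′ on the gene's strand, from 250 bases before the transcription start to 30 bases from it on. Capitals mark matches to the searched letters. The windows are chr1:17054003-17054282 (minus strand) for SDHB, chr11:63974370-63974649 (plus strand) for COX8A and chr7:25125231-25125510 (minus strand) for CYCS.
SDHB: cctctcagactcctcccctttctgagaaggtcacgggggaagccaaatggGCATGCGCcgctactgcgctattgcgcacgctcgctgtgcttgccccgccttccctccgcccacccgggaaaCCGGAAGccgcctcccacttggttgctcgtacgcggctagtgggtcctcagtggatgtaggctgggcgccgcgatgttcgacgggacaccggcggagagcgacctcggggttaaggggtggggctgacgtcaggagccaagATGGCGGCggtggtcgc
COX8A: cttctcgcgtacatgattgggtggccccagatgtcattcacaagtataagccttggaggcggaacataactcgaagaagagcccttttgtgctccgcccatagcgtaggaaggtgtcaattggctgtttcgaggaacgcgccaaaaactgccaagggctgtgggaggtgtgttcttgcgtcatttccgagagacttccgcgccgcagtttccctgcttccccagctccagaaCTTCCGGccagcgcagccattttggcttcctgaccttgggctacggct
CYCS: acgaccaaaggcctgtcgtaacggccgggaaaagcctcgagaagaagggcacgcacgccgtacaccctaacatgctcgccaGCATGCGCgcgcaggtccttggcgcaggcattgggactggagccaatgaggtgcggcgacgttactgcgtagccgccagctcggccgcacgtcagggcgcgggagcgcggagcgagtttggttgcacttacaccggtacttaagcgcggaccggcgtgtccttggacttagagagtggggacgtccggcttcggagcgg
In SDHB an NRF1 match began at base -200 from the start, an ETS match at base -128 and a YY1 match at base 14. In COX8A an ETS match on the opposite strand began at base -18, and in CYCS an NRF1 match began at base -169.

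The searched letters were GCATGCGC for NRF1, CCGGAAG for the ETS family and ATGGCGGC for YY1, on both strands over the 300-base table entries that run to 50 bases from the start. A promoter entry was found for 76 of the 99 members. The NRF1 letters were in 16 of these 76 promoters (21.1%), against 3.27% of all 27305 promoters in the table. The ETS letters were in 20 (26.3%, against 10.7%) and the YY1 letters in 12 (15.8%, against 3.21%). At least 1 of the 3 motifs was in 36 member promoters (47.4%, against 15.5%). Of the 14 members called lower with an entry 9 held a match, and of the 3 called higher with an entry 2 did. No letters of one motif overlapped another in the promoters shown. These counts describe letters in a window and not binding.

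Complex I is the largest entry point of the chain, with a core that holds the flavin and the iron-sulfur clusters and many supernumerary subunits around it. Of its 37 tested subunits 6 were called lower (16.2%, against 12.6% of all genes) and 1 higher (2.70%, against 13.6%). The median log2 fold change was -0.14. Leaving out 1 library moved these counts. The median was -0.29 without SNP a, -0.23 without control a, -0.085 without control b and -0.016 without SNP b. Of the 7 nuclear-encoded core subunits 1 was called lower and 1 higher, and of the 30 tested supernumerary subunits 5 were called lower and 0 higher. The core subunits called were iron-sulfur proteins and moved in opposite directions. NDUFS8, which carries iron-sulfur clusters next to the ubiquinone site (ENSG00000110717; chromosome 11, 68030617 to 68036644, plus strand), was at 26.1 and 32.3 CPM in control and 13.97 and 17.4 CPM in SNP. Both SNP libraries were below both controls, and NDUFS8 fell by 0.89 on the log2 scale (SE 0.184, edgeR adjusted p = 0.0011). NDUFS1, the largest core subunit of the matrix arm (ENSG00000023228; chromosome 2, 206114817 to 206159603, minus strand), was at 198 and 192 CPM in control and 244 and 232 CPM in SNP. Its rise was small, 0.29 on the log2 scale (SE 0.0963, edgeR adjusted p = 0.032), with no overlap between groups. The call on NDUFS1 was lost without control a, without control b and with some other alternatives.

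Among the supernumerary subunits, NDUFB11, an X-linked subunit of the membrane arm (ENSG00000147123; chromosome X, 47142216 to 47145504, minus strand), was at 14.8 and 17.4 CPM in control and 8.31 and 8.69 CPM in SNP. It fell 1.89-fold (edgeR adjusted p = 0.0042). Of its 1418 bases of exon 636 overlap an exon of RBM10, and reads of overlapping genes cannot be told apart here because the strand setting of the counting is not given in the sources used here. NDUFAB1, the mitochondrial acyl carrier protein, which also serves fatty acid and iron-sulfur cluster synthesis (chromosome 16, 23581002 to 23596356, minus strand), was at 17.6 and 19.7 CPM in control and 10.8 and 10.6 CPM in SNP. It fell by 0.79 (log2, SE 0.204, edgeR adjusted p = 0.0063) and overlaps no other exon. NDUFC2, a membrane arm subunit (chromosome 11, 78068304 to 78080219, minus strand), was at 22.2 and 26.6 CPM in control and 15.4 and 13.6 CPM in SNP. It fell by 0.75 (log2, SE 0.186, edgeR adjusted p = 0.0051), and it shares 431 exonic bases with the readthrough row NDUFC2-KCTD14. That readthrough row was counted 1 and 0 times in control and 23 and 6 times in SNP and was too low to be tested. The calls on NDUFAB1 and NDUFC2 were lost without control b and in no other alternative fit.

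NDUFA3 and NDUFA11, supernumerary subunits named here after their values were seen, were called lower at log2 fold changes of -0.73 (edgeR adjusted p = 0.046) and -0.59 (edgeR adjusted p = 0.016). The NDUFA3 call was lost in 7 of 14 alternative fits, among them without control b and without SNP a, and its log2 fold change reached -0.25. The NDUFA11 call was lost in 4 of 14, also without those libraries, and its log2 fold change reached -0.30. The 30 complex I subunits that were not called had log2 fold changes from -0.79 to 0.49. Of these 30, 13 had groups that did not overlap. Over all 37 tested subunits, called or not, 20 had such groups, against 64% of all genes tested. The subunit with the highest level per length was NDUFS5, a small subunit on the intermembrane face, at 209 ± 20.5 TPM in control and 268 ± 98.5 TPM in SNP (SD, n = 2 each). Its level was 37.0 CPM in SNP a and 20.7 CPM in SNP b, above and below both control libraries at 22.8 and 25.7 CPM, and it was not called (log2 fold change 0.25, edgeR adjusted p = 0.40). Over the 37 tested subunits the control level ran from 12.1 TPM for NDUFB1 to NDUFS5, a 17.2-fold range, with a median of 33.0 TPM. Exon lengths merge all annotated transcripts, which understates the TPM of genes with many long variants.

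Assembly factors build complex I and are not part of the finished enzyme. Of the 8 tested, 2 were called higher (against 13.6% of all genes) and 0 lower, and the median log2 fold change was 0.28, with 7 above 0. With offsets on base composition 0 were called, the median was 0.047 and 5 were above 0. NDUFAF6, which acts in early assembly (ENSG00000156170; chromosome 8, 94895767 to 95116455, plus strand), was at 27.1 and 27.7 CPM in control and 37.4 and 42.4 CPM in SNP, so both SNP libraries were higher. It rose by 0.54 (log2, SE 0.15, edgeR adjusted p = 0.010). NDUFAF7, a methyltransferase that acts in complex I assembly (ENSG00000003509; chromosome 2, 37231631 to 37253403, plus strand), was at 47.7 and 43.7 CPM in control and 59.3 and 63.1 CPM in SNP. It rose by 0.42 (log2, SE 0.127, edgeR adjusted p = 0.018), and both SNP libraries were above both controls. Both calls were lost without control a, without control b and with offsets on base composition. The difference between assembly factors and subunits was not tested.

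Complex III passes electrons from ubiquinol to cytochrome c. Of its 10 tested members 2 were called lower (20%, against 12.6% of all genes) and 0 higher (against 13.6%). Both called members were small accessory subunits. The median log2 fold change was -0.20, and without control b it was 0.013. The number called lower moved as well. UQCR10 (ENSG00000184076; chromosome 22, 29767369 to 29770413, plus strand) had the largest fall of any member. It was counted 35 and 32 times in control and 15 and 15 times in SNP, or 5.40 and 5.68 CPM against 1.89 and 1.94 CPM. All SNP counts were below the control counts although the SNP libraries were deeper. UQCR10 fell by 1.52 on the log2 scale (SE 0.393, edgeR adjusted p = 0.0066), or 2.87-fold, with a large standard error that goes with its low counts. UQCRQ (ENSG00000164405; chromosome 5, 132866560 to 132868031, plus strand) was at 15.4 and 16.7 CPM in control and 10.95 and 9.21 CPM in SNP. It fell by 0.67 (log2, SE 0.215, edgeR adjusted p = 0.026), a call that was lost without control a, without control b and with the DESeq2 test, among others. Of its 1472 exonic bases 306 overlap GDF9.

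The nuclear-encoded catalytic and electron-carrying subunits of complex III were not called. CYC1, the haem-bearing cytochrome c1, was at 22.5 and 26.3 CPM in control and 18.0 and 18.7 CPM in SNP (log2 fold change -0.41, SE 0.176, edgeR adjusted p = 0.092). Its SNP libraries lay below both controls, and with offsets on base composition CYC1 was called lower (-0.48, edgeR adjusted p = 0.040). UQCRH, the hinge protein that docks cytochrome c, had the highest level per length of the complex, 180 ± 15.5 TPM in control and 222 ± 25.5 TPM in SNP (SD, n = 2 each), and its CPM groups overlapped (log2 fold change 0.19, edgeR adjusted p = 0.33). The 8 members not called ranged from -0.41 to 0.66 on the log2 scale.

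CYCS encodes cytochrome c, the soluble electron carrier between complexes III and IV, which also triggers caspase activation when it leaves mitochondria (ENSG00000172115; chromosome 7, 25120091 to 25125361, minus strand). It stood at 62.2 and 69.1 CPM in control and 92.0 and 76.9 CPM in SNP. Both SNP libraries were above both controls, with SNP a the highest. CYCS rose by 0.37 on the log2 scale (SE 0.123, edgeR adjusted p = 0.032), a 1.29-fold change. The call was lost in 7 of 15 alternative fits, and with offsets on length, GC and base composition the log2 fold change was -0.017.

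Of the 13 tested members of complex IV 5 were called (38.5%, against 26.2% of all genes), with a median log2 fold change of -0.40. All 5 were lower (against 12.6% of all genes) and 0 higher (against 13.6%). Without control b the median was -0.16 and fewer were called lower. With offsets on base composition 2 were called (15.4%, against 18.9% of all genes), each lower, and the median was -0.31. COX8A, COX6B1 and COX6A1 were not called with these offsets. Complex IV is the terminal oxidase, and its nuclear-encoded subunits surround the catalytic core that mitochondrial DNA encodes. COX8A, the ubiquitous form of the smallest subunit (ENSG00000176340; chromosome 11, 63974607 to 63976543, plus strand), was at 13.6 and 15.8 CPM in control and 6.04 and 5.96 CPM in SNP. It fell 2.44-fold (log2 fold change -1.29, SE 0.244, edgeR adjusted p = 5.4e-04), with groups well apart. COX6B1, a subunit on the intermembrane side (ENSG00000126267; chromosome 19, 35648223 to 35658861, plus strand), was at 17.1 and 19.5 CPM in control and 8.43 and 9.98 CPM in SNP. It fell 1.99-fold (SE of the log2 fold change 0.214, edgeR adjusted p = 0.0017). Of the 507 exonic bases of COX8A 175 overlap AP000721.1, while COX6B1 overlaps no other exon.

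COX6A1, the non-muscle isoform of a regulatory subunit (chromosome 12, 120438090 to 120440742, plus strand), was at 25.0 and 26.8 CPM in control and 17.1 and 13.4 CPM in SNP. It fell 1.70-fold (edgeR adjusted p = 0.0042). COX7A2, the ubiquitous isoform of another small membrane subunit (chromosome 6, 75237675 to 75250323, minus strand), was at 18.0 and 21.5 CPM in control and 11.8 and 11.3 CPM in SNP. It fell 1.70-fold (edgeR adjusted p = 0.0070), and the call was lost only without control b. NDUFA4 was first assigned to complex I and is now counted with complex IV (chromosome 7, 10931951 to 10940256, minus strand). It was at 19.7 and 33.7 CPM in control and 19.5 and 15.8 CPM in SNP, so control a barely exceeded SNP a. It fell by 0.59 on the log2 scale (SE 0.213, edgeR adjusted p = 0.046), a call lost without control b, without SNP b, with DESeq2, with limma-voom and with total counts.

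Several complex IV subunits exist as isoform pairs, and the tissue-restricted partner was low or at 0 in these cells. COX6A2, the heart and muscle form, COX7A1, also a muscle form, and COX7B2 were at 0 counts in all 4 libraries, where 3 counts correspond to 0.372 to 0.534 CPM. COX8C was counted 1, 1, 0 and 3 times in control a, control b, SNP a and SNP b. COX4I2, the isoform known in lung, was counted 4 and 9 times in control and 3 and 4 times in SNP, and NDUFA4L2, a known hypoxia-responsive relative of NDUFA4, 8 and 7 times in control and 6 and 3 times in SNP. None of these 6 was tested. COX6B2 was tested and not called (log2 fold change 0.37, SE 0.623). The general isoform COX4I1 was at 38.1 and 48.6 CPM in control and 46.2 and 45.1 CPM in SNP, with overlapping groups (log2 fold change 0.079, SE 0.142). COX7A2L, a relative of COX7A2 that links complexes III and IV into supercomplexes, was at 48.9 and 58.2 CPM in control and 75.3 and 59.3 CPM in SNP, opposite in sign to COX7A2 but not called (log2 fold change 0.33, edgeR adjusted p = 0.079). COX7B was not called either, at -0.17.

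Of the 17 tested ATP synthase genes 3 were called lower (17.65%, against 12.6% of all genes) and 0 higher (against 13.6%). The median log2 fold change was -0.24, and 15 were below 0. The median was -0.37 without SNP a, -0.14 without control b and -0.041 without SNP b. The number called lower moved without control a and without control b. ATP5D, the delta subunit of the central stalk that couples rotation to catalysis (ENSG00000099624; chromosome 19, 1241746 to 1244826, plus strand), was at 20.2 and 26.6 CPM in control and 9.82 and 11.3 CPM in SNP. It fell 2.21-fold (log2 fold change -1.14, SE 0.205, edgeR adjusted p = 3.2e-04), had the smallest p of all members and overlaps no other exon. Its log2 fold change lay between -1.33 and -0.69 over the alternatives. ATP5F1, the b subunit of the peripheral stalk (chromosome 1, 111448864 to 111462773, plus strand), was at 37.3 and 37.6 CPM in control and 28.4 and 25.7 CPM in SNP. It fell by 0.47 (log2, SE 0.15, edgeR adjusted p = 0.025), and its call was lost without control a, without control b and without SNP b. ATP5EP2 (0, 3, 0 and 0 counts in control a, control b, SNP a and SNP b) and ATP5L2 (4, 6, 3 and 3 counts) were too low to be tested.

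ATP5G1, ATP5G2 and ATP5G3 encode the same mature subunit c of the rotating membrane ring from separate genes. ATP5G2 (chromosome 12, 53632726 to 53677408, minus strand) had the highest level per length, 68.6 ± 6.92 TPM in control, against 20.1 ± 6.25 TPM for ATP5G1 and 11.9 ± 1.26 TPM for ATP5G3 (SD, n = 2 each). It was at 54.6 and 61.8 CPM in control and 40.8 and 47.2 CPM in SNP, so the gap between groups was about as wide as the gap within each. It fell by 0.40 (log2, SE 0.133, edgeR adjusted p = 0.029), a call lost without control a, without control b and without SNP a. ATP5G1 (log2 fold change -0.41, SE 0.26) and ATP5G3 (-0.035, SE 0.195) were not called and their groups overlapped. ATP5B, the catalytic beta subunit, was the highest of the complex at 305 ± 22.4 TPM in control and 306 ± 8.89 TPM in SNP (SD, n = 2 each). Its CPM values of 144 and 157 in control and 145 and 133 in SNP overlapped (log2 fold change -0.11, SE 0.104). The readthrough row ATP5J2-PTCD1 was not called (-0.13), and 81.2% of its 75-base windows are also found in another gene, so its counts are uncertain. The inhibitor of ATP synthase, listed as ATPIF1 and outside the member rule, was not called either (log2 fold change -0.22, SE 0.247).

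**Figure D2:**
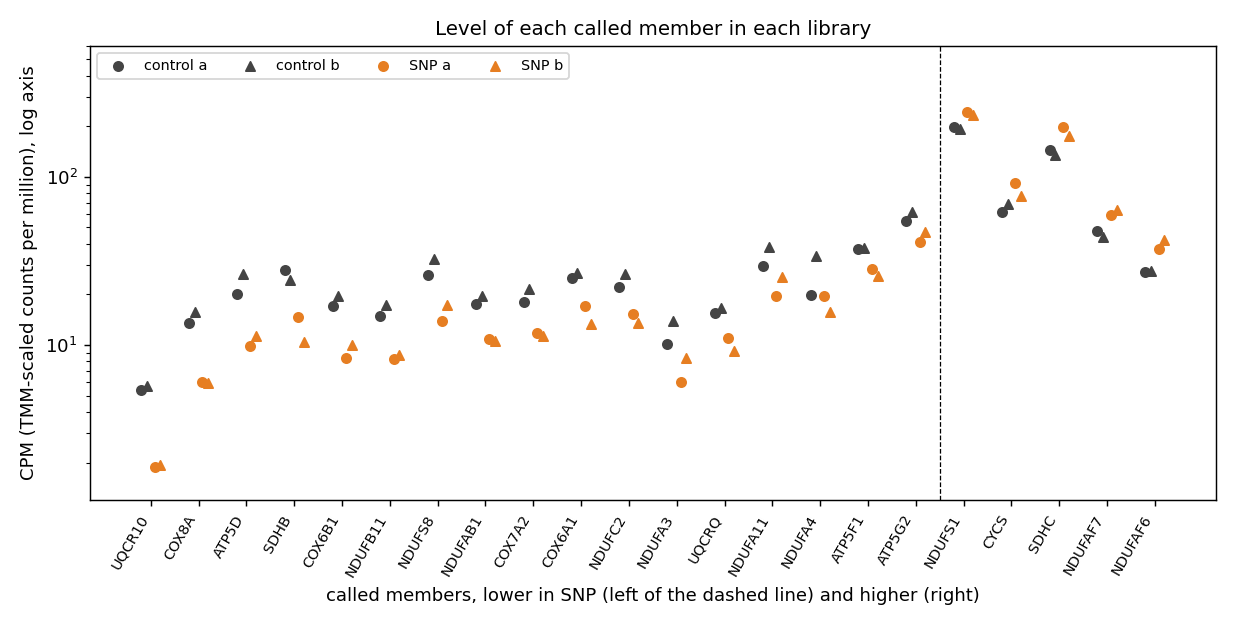
Level of each of the 22 called members in each library, in TMM-scaled CPM on a log axis; dark symbols are control and orange symbols SNP, circles replicate a and triangles replicate b. The 17 members left of the dashed line have both SNP libraries below both controls and the 5 to its right have both above, with the narrowest gap at NDUFA4 between control a (19.7) and SNP a (19.5).

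Control levels per length spanned 1.73-fold among the 4 subunits of complex II and 100-fold among the 13 tested members of complex IV, and the highest member of each was the same in both groups except in complex II. In complex IV the control maximum was COX6A1 at 142 ± 8.97 TPM (SD, n = 2), with COX8A next at 136 ± 16.5 TPM, and these did not differ beyond their spread. In SNP libraries COX6A1 stood at 90.2 ± 12.9 TPM and COX8A at 60.5 ± 1.41 TPM, while COX4I1 was at 76.9 ± 1.22 TPM (SD, n = 2 each). Among the assembly factors NDUFAF7 led in control at 58.8 ± 2.83 TPM and in SNP at 85.8 ± 6.60 TPM (SD, n = 2 each). CYCS was at 69.3 ± 6.10 TPM in control and 96.7 ± 9.12 TPM in SNP.

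**Figure D3:**
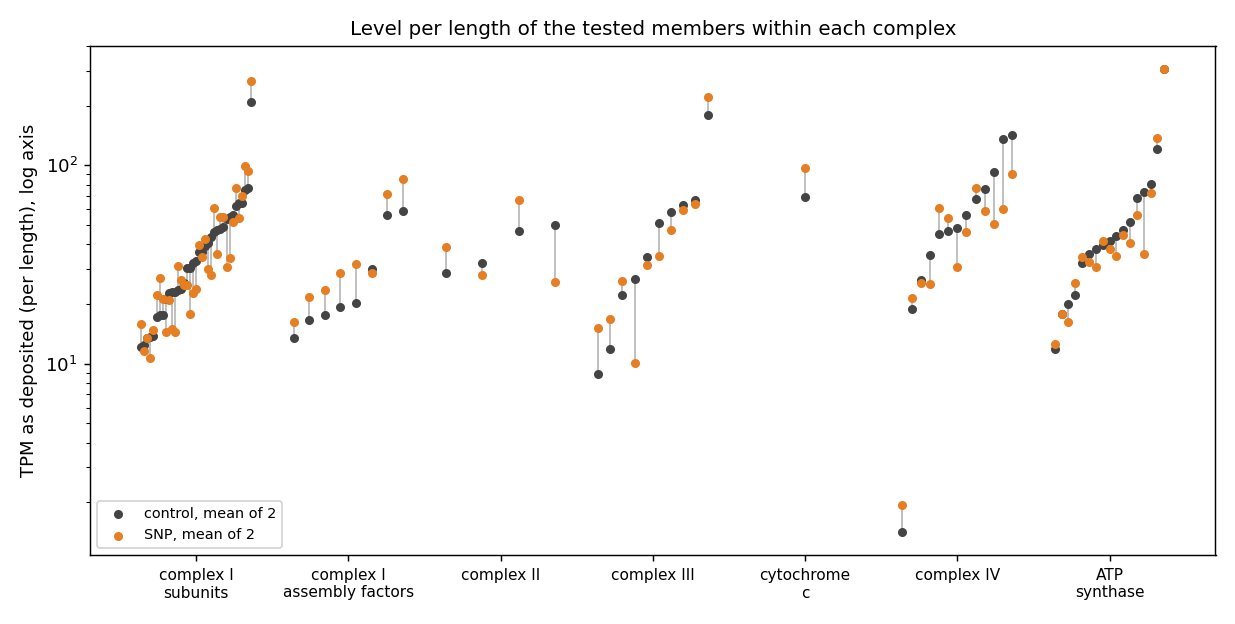
Deposited TPM (log axis) of the 90 tested members, grouped by complex and ordered within it by the control level; dark points are the control mean and orange points the SNP mean of 2 libraries, joined by a line for each gene. ATP5B is the highest point in both groups (305 and 306 TPM), COX6B2 the lowest in control (1.41 TPM), and the longest drops include SDHB, UQCR10, COX8A and ATP5D.

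The fold changes of the members went with the base composition and the length of their transcripts. Across the 90 tested members the log2 fold change rose with guanine minus cytosine content (Spearman's rho 0.55), as it did across the 14724 genes with a composition (rho 0.48). These are descriptions across genes of the same 4 libraries, and genes are not independent replicates. Of the 21 members with more cytosine than guanine 11 were called lower and 0 higher, and the median log2 fold change was -0.61. Of the other 69 members 6 were called lower and 5 higher, with a median of -0.0022. Over all genes with more cytosine than guanine 25.9% were called lower and 3.59% higher, and over the other genes 5.52% lower and 18.9% higher. The medians were -0.26 for the former 5128 genes and 0.12 for the latter 9596 genes. For exon length the correlation was 0.40 across members and 0.092 across all genes. All 8 called members of the 33 under 2000 bases of exon were lower. Of all genes of that length 12.0% were called lower and 5.65% higher. Of the 19 members of at least 5000 bases 3 (NDUFS1, SDHC and NDUFAF6) were called higher and 0 lower. That is 15.8% higher, near the 13.6% of all genes of any length, and the share among all genes of at least 5000 bases was not taken. With the composition offsets NDUFS1 and NDUFAF6 were not called. Within the SNP group the ratio of library b to library a also went with GC content, with rho 0.40 across members and 0.41 across all genes.

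Coding sequences show the contrast for a member that fell and one that rose. They are taken from GENCODE 29, 5′ to 3′, with guanine in capitals. UQCR10 (chromosome 22) is shown whole at 192 bases, with 49 guanines and 58 cytosines. CYCS (chromosome 7) is shown for the first 300 of its 318 coding bases, with 79 guanines and 57 cytosines.
UQCR10: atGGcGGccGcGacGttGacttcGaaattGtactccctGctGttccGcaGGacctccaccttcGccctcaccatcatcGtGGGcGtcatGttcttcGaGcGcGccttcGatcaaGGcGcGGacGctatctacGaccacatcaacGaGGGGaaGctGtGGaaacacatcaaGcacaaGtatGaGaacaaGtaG
CYCS: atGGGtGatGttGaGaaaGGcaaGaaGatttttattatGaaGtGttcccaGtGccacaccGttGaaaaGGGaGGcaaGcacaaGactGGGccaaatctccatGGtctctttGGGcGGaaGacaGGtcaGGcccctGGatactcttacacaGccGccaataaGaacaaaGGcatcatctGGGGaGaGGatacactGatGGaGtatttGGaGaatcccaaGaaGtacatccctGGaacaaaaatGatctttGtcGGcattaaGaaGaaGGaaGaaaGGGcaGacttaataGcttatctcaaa
The pair does not stand for all called members. Guanine minus cytosine in the longest coding sequence was 8.33 percentage points in COX7A2 and 0.48 in COX8A, which fell. It was -0.95 in SDHB and -1.38 in ATP5D, which also fell. Of the members that rose it was -0.20 in SDHC and 5.80 in NDUFS1. Over all annotated transcripts guanine exceeded cytosine by 4.54 percentage points in CYCS and was lower than cytosine in UQCR10. In the called members below 0 on this measure, such as ATP5D (-4.97), COX8A (-4.93) and COX6B1 (-4.23), every call was lower, whereas NDUFAB1 (3.95) and COX7A2 (3.61) were called lower with more guanine than cytosine.

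When each library was fitted with offsets on length, GC and guanine minus cytosine content, 13 members were called (14.4%, against 18.9% of all genes). Of these 12 were lower (13.3%, against 10.3% of all genes) and 1 was higher (1.11%, against 8.59%). The higher member was SDHC. Of the original 22 calls 10 were called again in the same direction, namely ATP5D, SDHB, NDUFS8, NDUFAB1, NDUFC2, COX7A2, UQCRQ, NDUFA4, ATP5F1 and SDHC. The 3 members called with offsets and not without were NDUFV1, CYC1 and ATP5O, named after their values were seen. COX8A had a log2 fold change of -0.63 with offsets (edgeR adjusted p = 0.070), COX6B1 -0.44 (0.13), NDUFB11 -0.46 (0.13), COX6A1 -0.36 (0.15) and UQCR10 -1.10 (0.052). Each kept its sign and lost its call in this setting and in no other fit. The median over members was -0.19 with offsets, against -0.026 over all genes. What gave rise to the relation with composition was not tested, and composition and exposure effects on the same genes cannot be told apart in 4 libraries.

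**Figure D4:**
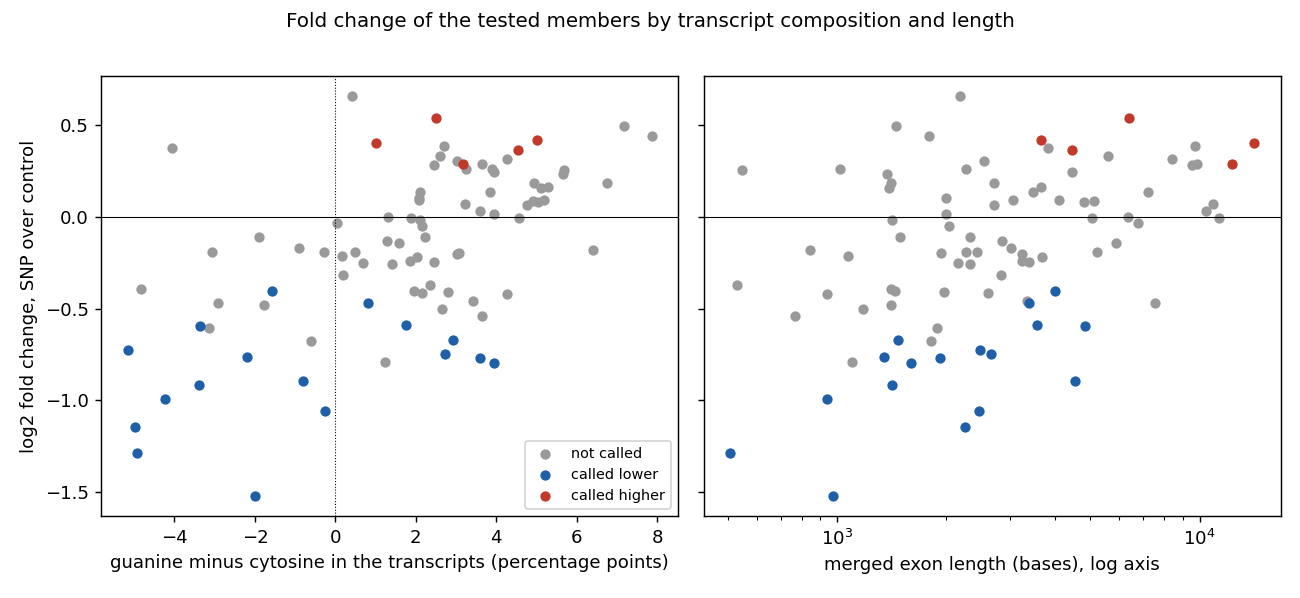
Log2 fold change of the 90 tested members, SNP over control, against guanine minus cytosine in their transcripts (left, percentage points) and against merged exon length (right, bases, log axis); blue points are called lower, red higher and grey not called. Of the 21 members left of 0 in the left panel 11 are called lower. In the right panel 3 of the 19 members of at least 5000 bases are called, all higher.

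Precision followed the counts. The mean count of a tested member over the 4 libraries had a median of 125 and a range from 8.75 to 1522. The median SE of the log2 fold change was 0.35 for the 16 members with a mean under 50 counts, of which 1 was called. It was 0.20 for the 49 members between 50 and 200 counts, of which 14 were called, and 0.13 for the 25 members of at least 200 counts, of which 7 were called. Small changes in the first class were not detectable at this depth. The share called also depends on depth over all genes. In a separate fit that required a mean of at least 50 counts, 33.05% of all genes and 25 members were called. The a and b libraries also differed among themselves. SNP b was below SNP a for 61 of the 90 tested members, with a median difference of -0.15 on the log2 scale, against -2.8e-04 over all genes. Control b minus control a went the other way, with a median of 0.12 over the members, against 0.0014 over all genes.

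The partner subunits encoded in mitochondrial DNA were lower in SNP as a group. Of the 13 mitochondrial mRNAs 10 were called lower (76.9%, against 12.6% of all genes) and 1 higher (7.69%, against 13.6%). The median log2 fold change was -0.55 (median over all genes -0.0042). MT-CO1, the catalytic subunit of complex IV, was at 16949 and 15581 CPM in control and 7624 and 7392 CPM in SNP (log2 fold change -1.12, SE 0.071, edgeR adjusted p = 1.1e-09). MT-CYB, the cytochrome b of complex III, had a log2 fold change of -0.80 (edgeR adjusted p = 1.4e-06). MT-ND6, the complex I subunit encoded on the opposite strand to the rest, rose by 0.70 (edgeR adjusted p = 4.2e-04). These directions changed with the composition offsets, under which 7 were called higher and 2 lower with a median of 0.33, and 9 of the 11 called mRNAs had the opposite sign. There MT-CO1 stayed lower at -0.30 (edgeR adjusted p = 7.6e-04) and MT-ND6 was lower at -1.07 (edgeR adjusted p = 2.7e-06).

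Genes that build and serve the complexes changed in both directions. Of 51 assembly factors outside the members 5 were called higher and 5 lower (19.6% called, against 26.2% of all genes; median -0.072). With the composition offsets 1 was called higher and 5 lower. FOXRED1, a complex I assembly factor, rose by 0.69 (edgeR adjusted p = 0.0012), and ECSIT, another, fell by 0.70 (edgeR adjusted p = 0.0036). FOXRED1 and ECSIT were called with the offsets too. Among 18 carriers, porins and cristae proteins 2 were called higher and 4 lower (33.3% called, against 26.2% of all genes, and median -0.21). The higher ones were OPA1 (0.50, edgeR adjusted p = 0.0013), the fusion GTPase that shapes cristae, and CHCHD3 (0.44, edgeR adjusted p = 0.0024) of the cristae junction complex. The lower ones, named after their values were seen, were the ADP/ATP carriers SLC25A5 and SLC25A6, the phosphate carrier SLC25A3 and the prohibitin PHB2. With the composition offsets CHCHD3 (0.19, edgeR adjusted p = 0.074), SLC25A6 and PHB2 were not called, while OPA1 was called at 0.24 (edgeR adjusted p = 0.040). Of the 18, 1 was called higher and 6 lower with these offsets. The lower ones included VDAC2, VDAC3, SAMM50 and PHB, named after their values were seen, which were not called without offsets. Of 13 coenzyme Q synthesis genes 1 (7.69%, against 26.2% of all genes), COQ9, was called, at -0.40 (edgeR adjusted p = 0.048). Of 32 import genes 4 were called higher and 4 lower (25% called, near the 26.2% of all genes, and median 0.13). Among them were HSPA9, the matrix chaperone of the import motor (0.83, edgeR adjusted p = 1.6e-05), and TIMM50, an inner membrane receptor (-0.76, edgeR adjusted p = 2.3e-04). With the composition offsets 3 import genes were called higher and 3 lower.

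Of 13 tested regulators of mitochondrial gene expression 3 were called higher and 2 lower (38.5% called, against 26.2% of all genes, and median 0.077). NFE2L1, a stress-responsive bZIP factor, rose by 0.54 (edgeR adjusted p = 3.2e-04), and SP1, a general activator of GC-rich promoters, fell by 0.66 (edgeR adjusted p = 6.0e-05). The other calls, named after their values were seen, were TFAM, the packaging and transcription factor of mitochondrial DNA (0.52, edgeR adjusted p = 0.0037), GABPA (0.40, edgeR adjusted p = 0.032) and NFE2L2 (-0.46, edgeR adjusted p = 0.014). The calls on TFAM and GABPA were lost with the composition offsets. The mRNAs of NRF1 (log2 fold change -0.057) and YY1 (0.077), whose motif letters were searched above, were not called.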

How the data were processed

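RNA sequencing tables of 4 SH-SY5Y libraries, 2 control and 2 SNP, were used, with groups read from the titles and the agent label. Whole-number read counts per gene, deposited by the authors without normalization, were the values tested. The TPM column deposited by the authors sums to 1000000 per library and served for levels between genes. The RPKM column deposited by the authors served to check gene lengths and depth against the counts. The genome build is GRCh38, per the submitters' processing notes, and the aligner, counter and strand setting are not given in the sources used here. Positions, exon lengths and base composition came from GENCODE 29, in which all 99 members were found, and promoters from RefSeq.

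Counts were tested with edgeR 4.0.16 in R 4.3.3 (filterByExpr with minimum count 10 and minimum total 15, TMM, quasi-likelihood test of SNP against control without covariates, Benjamini-Hochberg adjustment over 14759 genes, threshold 0.05). Alternatives were other filters, DESeq2 size factors, total counts, DESeq2 1.42.0, limma-voom (limma 3.58.1), the replicate letter as a block, per-library lowess offsets (span 0.5) on length and GC with and without that block and with guanine minus cytosine, genes without exonic overlap, stricter thresholds (0.01, or a 2-fold change besides), and each library left out. Whether the letters a and b pair the libraries is not stated. Across genes the a-minus-b differences in control and in SNP had a correlation of 0.050. Counting noise enters these differences, so the correlation cannot settle it. With the block 30.4% of all genes were called, against 26.2% without it. Scripts were tested on simulated data. Total counts per library, 5613144 to 8056550, set the precision, and a floor of 3 counts covers counting error only.

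The members, the related lists and the naming rule were chosen with earlier results of these data known. Named were, per complex, up to 4 called members with the smallest p in the main direction, up to 2 in the other, and the highest by TPM; all complex II subunits, CYC1, CYCS, isoform families, readthrough rows and the ATP synthase inhibitor; and MT-CO1, MT-ND6 and up to 2 called genes per list. A few genes are not reported here.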

Additional observations from a re-analysis of the deposited data

How the results depend on the processing

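The median log2 fold change of the members (-0.16) stayed below 0 in each alternative, from -0.27 to -0.012 when 1 library was left out and at -0.069 with length and GC offsets. The number called (22) was 14 with the DESeq2 Wald test, 13 with offsets on length, GC and guanine minus cytosine, 9 with genes free of exonic overlap (41 members tested), 12 at an adjusted p under 0.01, 4 when a 2-fold change was also required, and 8 to 23 when 1 library was left out. Over the same settings the number higher (5) was 3, 1, 1, 1 and 0, and 0 to 9 when 1 library was left out. The number lower (17) was 11 with DESeq2, 8 without exonic overlap, 11 at 0.01, 4 with the fold threshold, and 8 to 18 when 1 library was left out; with the composition offsets it was 12. Among the left-out libraries, control b gave the lowest count. The share called over all genes moved too, from 26.2% to 16.4% with the DESeq2 Wald test and 18.9% with the composition offsets. It was 27.9% without exonic overlap. Why the member counts moved was not tested, except that fewer members entered the test without exonic overlap.

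With the replicate block 26 members were called, 7 higher and 19 lower, with a median of -0.17, and those counts moved by less than 1.5 times; by complex, the number higher went from 1 to 2 in complex I subunits and in complex II. Signs reversed with the composition offsets for UQCRH (-0.22), CYCS (-0.017), SDHA (-0.0025), COX4I1 (-0.31), MT-CYB (0.084) and MT-ND6 (-1.07). Leaving out 1 library gave ranges across 0 for NDUFS5 (-0.22 to 0.61), COX4I1 (-0.091 to 0.26), COX6B2 (-0.016 to 0.85), ATP5G3 (-0.19 to 0.10, with 0.059 without control b) and ATP5J2-PTCD1 (-0.36 to 0.17). ATP5J2-PTCD1 was also at 0.019 with length and GC offsets and the replicate block. Of the genes named here MT-CYB, MT-ND6 and CYCS had been called, and 9 of the 11 called mitochondrial mRNAs reversed in sign with these offsets. Members with a mean under 50 counts had a median SE of 0.35, which limits what could be called among them.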

Other observations

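Respiratory chain genes have left many processed pseudogene copies in the human genome. The tables list 201 pseudogene rows named after 47 of the members, and 196 of these rows were at 0 in every library. The 5 with counts were SDHAP1 (153, 147, 164 and 214 counts in control a, control b, SNP a and SNP b), SDHAP3, ATP5F1P1, NDUFB10P2 and COX5BP6. Together they came to 1.09% to 1.42% of the reads given to members and copies in a library. Over all listed genes 386 of 10233 processed pseudogenes (3.77%) had a count in any library, against 83.2% of protein-coding genes. How the authors' counting treated reads that match several places is not given in the sources used here.

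Members exposed to such sharing were sought among the 75-base windows of their transcripts, the labelled read length. Windows that also occur, in the same sense, in transcripts of another gene were counted as shared. The share was 81.2% for ATP5J2-PTCD1, 70.7% for NDUFC2-KCTD14, 33.5% for NDUFB8, 25.9% for NDUFA7, 24.6% for NDUFV2, 24.0% for COX6B2 and 23.6% for COX8A. It was 0% for SDHB, UQCR10, COX6B1, NDUFAB1, COX7A2 and UQCRQ, and 1.34% for ATP5D. Overlaps with a gene on the opposite strand do not enter this share. ATP5I, NDUFB11 and UQCRQ had 61.6%, 44.85% and 20.8% of their exon length overlapped by MYL5, RBM10 and GDF9, with 0% of windows shared. Of the 90 tested members 49 share exonic bases with another gene on either strand, and 14 of the 22 called members are among them.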
